A study of Mus musculus with 2 samples.

Results

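The core and B56 subunits of protein phosphatase 2A (PP2A) are 9 genes of the 37074 gene names on the array. They are the catalytic subunits *Ppp2ca* and *Ppp2cb*, the scaffold subunits *Ppp2r1a* and *Ppp2r1b*, and the B56 regulatory subunits *Ppp2r5a*, *Ppp2r5b*, *Ppp2r5c*, *Ppp2r5d* and *Ppp2r5e*. They were found by the gene name that the scanner files give to each probe, leaving out control probes, and 20 probes carried such a name. The expression microarray asked what happens in MCMs, cultured mouse cardiomyocytes, when the B56δ subunit encoded by *Ppp2r5d* is depleted.

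PP2A is a serine/threonine phosphatase that works as a trimer. A scaffold A subunit holds a catalytic C subunit, which removes the phosphate, and a regulatory B subunit, which selects substrates and places the enzyme in the cell. The B56 family, also called B′, is a family of such B subunits that recognise a short docking motif in their partners. In heart muscle, B56 subunits are known to direct PP2A to calcium channels, to scaffolds of cAMP signalling and to proteins of the contractile apparatus. Because all B subunits share the same A and C subunits, the level of each subunit was compared between the 2 conditions.

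There was 1 culture for each condition. The control culture received siRNA-NC, a negative control siRNA, and the other received siRNA-Ppp2r5d, a single siRNA against *Ppp2r5d*. Both were MCMs from a commercial source, passaged in culture and kept in 2% serum, both were given glucose-free medium 48 h after transfection, and both were collected at 64 h. Cyanine 3-labelled RNA of each culture went onto its own one-colour array, and both arrays lay on 1 slide with 1 scan time. With 1 array per condition there was no replicate check of any difference, so no p-value was computed. The errors below are those of spots on an array and leave out the difference between cultures. Those after ± are assigned by the scanner software, and were near 10% of the control intensity for bright subunit probes. Repeated spots brighter than 1000 scattered less, with a median SD of 0.035 for the log2 difference. In a bulk culture, fewer cells that express a gene and less RNA per cell cannot be told apart.

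The labelled cell type was set against its markers. Of 15 cardiomyocyte markers, 9 were well above background on both arrays by the mark of the scanner software. The cardiac actin *Actc1* had an intensity of 6443 in the control and 5268 after depletion. The cardiac troponin T gene *Tnnt2* had 858 and 1006 from 1 of its 3 probes, in the same order as all pairs that follow. The cardiac myosin *Myh6*, with 12.4 and 14.3, and the calcium release channel *Ryr2*, with 8.09 and 19.3, were not well above background on both arrays, and *Myl2*, *Myl7*, *Pln* and *Actn2* were not well above background on either. Of 8 fibroblast markers 7 were measured on both arrays, with 72475 and 67320 for the collagen chain *Col1a1*. All 4 smooth muscle markers were measured, with 133436 and 115480 for *Acta2*. Of the macrophage markers 4 of 5 were measured, among them *Ptprc* with 888 and 848 from 1 of its 7 probes, and of the endothelial markers 1 of 6, *Pecam1* with 55.6 and 41.4. These intensities are from the brightest probe of each gene. Summed over such probes, the cardiomyocyte list came to 10330 and 9522 and the macrophage list to 6324 and 5285. The fibroblast list came to 302562 and 282829, and the smooth muscle list to 141925 and 129727. These sums are unscaled and rest mostly on the brightest genes. After scaling, 8 markers differed by at least 1.5-fold, and they are named for that reason. The smooth muscle genes *Cnn1*, from 1 of its 2 probes, and *Tagln* were higher after depletion, with log2 differences of 2.41 and 0.85. The fibroblast genes *Lum* with 1.08 and *Pdgfra* with 0.62 were higher as well. The cardiomyocyte genes *Myl3*, *Ttn* and *Nppa* were higher too, with 0.90, 0.89 and 0.62, while the macrophage gene *Cd68* was lower with -0.77. *Nppa* had intensities of 16.6 and 22.4 from 1 of its 2 probes, near 14.9 and 13.5, the lowest well above background. *Myl3* was dim as well, with 40.4 and 66.2, and the *Ttn* probes ran from 0.44 to 1.55. The cultures thus held signal from part of the cardiomyocyte markers together with matrix, smooth muscle and macrophage genes. The part that other cell types play in the values of the subunits was not tested.

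Each of the 20 probes is a single spot of 60 bases. Below are the last 30 bases, 5′ to 3′, of the 12 probes that carry the results on *Ppp2r5d*, on the subunits that moved most, on the genes whose probes differed among themselves, and on the catalytic pair. Capitals mark AATAAA, the hexamer that lies near the 3′ end of most messenger RNAs.
Ppp2r5d, probe A_51_P233396: gcttctggctgtgtacacagggtgctttat
Ppp2r1a, probe A_55_P2500443: cctactgtacacggagaAATAAAggtgtag
Ppp2r1a, probe A_66_P109169: ctgaggacaagtcttggcgtgttcgctaca
Ppp2r5c, probe A_51_P320523: aaatagaaaatctagccaaagcgaatcccc
Ppp2r5c, probe A_52_P27332: gttgttaagacactgttgattctgtaccag
Ppp2r5c, probe A_55_P2105873: agtgtatttctttttggttgagaagtgtgt
Ppp2r5c, probe A_55_P2935730: ttggacacattaaaggtggtttgagtctcg
Ppp2r5e, probe A_51_P127607: gtttgatgagctgacagccacatacaagtc
Ppp2r5e, probe A_52_P448936: aagcctgttgagtatcttaaccgcaccacc
Ppp2r5e, probe A_55_P2727469: ctgaaagaaggggtgtgcgtccgagaggag
Ppp2ca, probe A_52_P358076: attaatttaattgtatgatttgtctgcact
Ppp2cb, probe A_55_P1994913: tgtactgaacaAATAAAatttccgatttag
The hexamer was searched on the printed strand of the whole 60 bases, and 9.77% of all 56605 probes hold it. It was present in 3 of the 20 subunit probes, the 2 shown and a probe of *Ppp2r1b*. The subunits are paralogs within each class, and a probe could bind the wrong one. The longest run of bases that a probe shared with a probe of another subunit, on either strand, was 7 to 10 bases, so no pair of these probes had a common stretch near their full length. Whether a probe matches the transcript of a paralog was not analysed here. Positions are those of the array annotation on build mm9, and which exon or untranslated region each falls in was not analysed here.

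**Figure D1:**
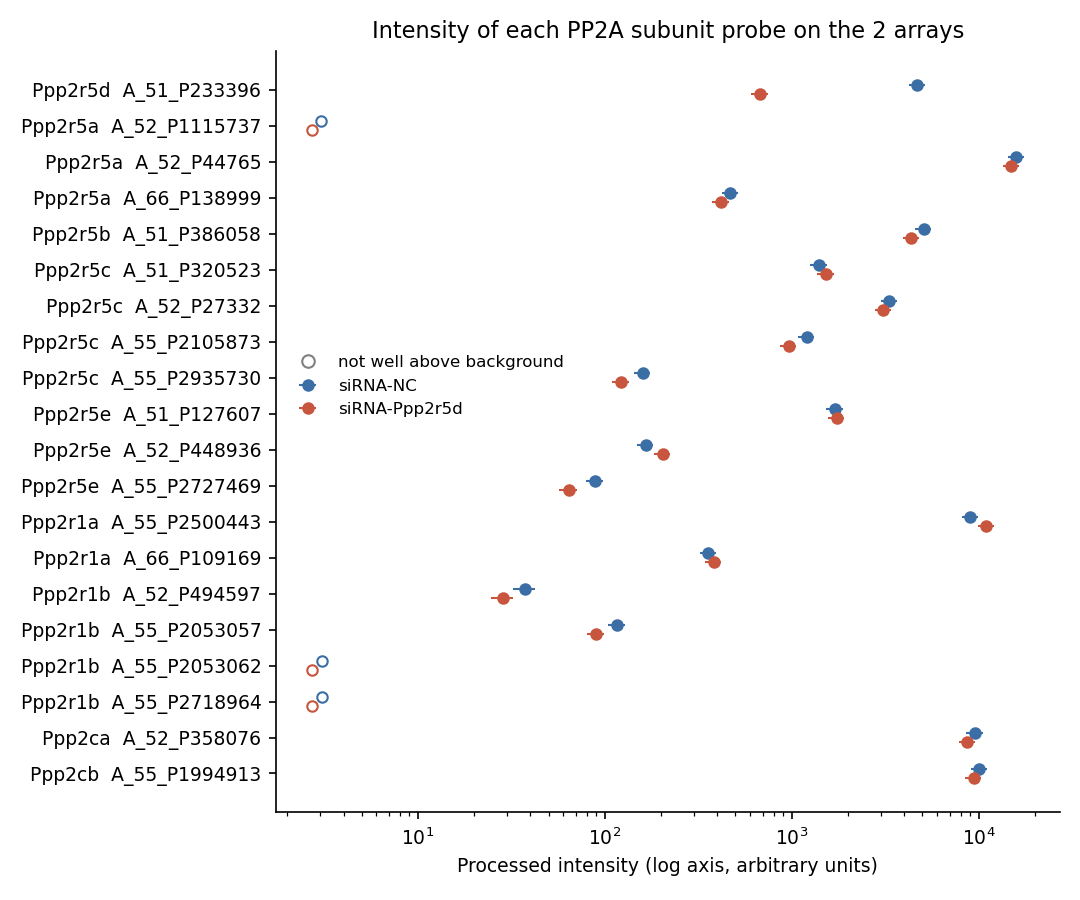
Processed intensity of the 20 PP2A subunit probes with siRNA-NC (blue) and siRNA-Ppp2r5d (red), on a log axis. Bars are the error that the scanner software gives for the single spot, and open points are not well above background. The *Ppp2r5d* probe falls from 4701 to 676, and the other 16 measured probes lie close to each other on the 2 arrays.

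*Ppp2r5d*, the targeted gene, was the subunit that differed most between the cultures. Its single probe is placed at chr17:46819940-46819973 on the minus strand, an interval of 34 bases for a probe of 60. Its intensity was 4701 ± 470 with siRNA-NC and 676 ± 67.7 with siRNA-Ppp2r5d, where ± is the error that the scanner software assigns to the spot. After each array was scaled to its 75th percentile, an intensity of 593 in the control and 519 after depletion, the log2 difference was -2.61 ± 0.20 (scanner error). The gene was thus 6.09-fold lower, and 16.4% of the control level remained, with 14.3% and 18.9% at 1 scanner error to either side. The remaining signal of 676 was far above 13.5, the lowest intensity that was well above background on that array.

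The depth of this fall was rare among genes measured on both arrays. Of 20350 genes with a probe well above background on both arrays, 3 were lower than *Ppp2r5d*. Genes whose probes were not well above background after depletion are left out of this count. The 2857 probes with a mean level within 0.5 of the *Ppp2r5d* probe on the log2 scale had log2 differences from -0.43 to 0.39 between their 5th and 95th percentiles. The genes with the closest log2 differences, over these 2 arrays, were a pair of transcripts that the array names by their position alone, followed by the ligand *Wnt10b* with -2.30. The pair fell from 104 and 118 with siRNA-NC to 14.9 and 15.1 with siRNA-Ppp2r5d, near the lowest intensity well above background there, 13.5. With 2 arrays such closeness is a likeness of a single number.

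The genes next to *Ppp2r5d* on its chromosome, in the order of the RefSeq annotation of GRCm38, lay much closer to 0. *Mea1*, whose gene overlaps that of *Ppp2r5d*, had a log2 difference of -0.019, and *Klhdc3* on the same side had 0.056. On the other side *Pex6*, a peroxisomal ATPase, had -0.36 over 3 probes, and *Gnmt*, a glycine methyltransferase, had 0.48. These 4 neighbours were chosen after the values of *Ppp2r5d* were seen.

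Among the other B56 subunits, no gene moved by 1.5-fold, beside 3.36% of all genes higher and 4.65% lower. At these shares an absence among 4 genes is no result about them. The gene values, means over the probes well above background on both arrays, were 0.068 for *Ppp2r5a*, -0.030 for *Ppp2r5b*, 0.020 for *Ppp2r5c* and 0.15 for *Ppp2r5e* on the log2 scale. The median of these 4 genes was 0.044, beside 0.026 over all 20350 genes. Scaled to spike-in probes, which moved the median of all genes to -0.15, all 4 lay below 0.

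*Ppp2r5a* encodes B56α, the B56 subunit that ankyrin-B places in the heart muscle cell. Its probe at chr1:193175895-193175954 had 15920 with siRNA-NC and 14978 with siRNA-Ppp2r5d, a log2 difference of 0.10 ± 0.20. A second probe, at chr1:193212146-193212205, had 468 and 419, a log2 difference of 0.031 ± 0.20. Both differences were smaller than the scanner error of a spot. The third probe of the gene was not well above background on either array. *Ppp2r5b*, which encodes B56β, was measured by 1 probe at chr19:6227820-6227879 with 5075 and 4350, a log2 difference of -0.030 ± 0.20, likewise within the scanner error.

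*Ppp2r5c* encodes B56γ, known for acting on p53. It had 4 measured probes, and they did not move together. The probe at chr12:111808917-111808976, annotated to transcript variant 1, had 1398 with siRNA-NC and 1521 with siRNA-Ppp2r5d, a log2 difference of 0.31 ± 0.20. A further probe of variant 1, at chr12:111820692-111820751, had 3324 and 3087, or 0.086 ± 0.20. The probe at chr12:111809756-111809815, annotated to variant 4, had 1201 and 961, or -0.13 ± 0.20, and the probe at chr12:111689148-111689207, annotated to a cDNA clone, had 159 and 122, or -0.19 ± 0.21. The probes annotated to variant 1 were thus higher and those annotated to variant 4 and the clone lower. All but the first of the 4 probes differed by less than the scanner error. Whether the 4 probes read separate transcripts was not analysed here. The range between the extremes was 0.50. Of 2480 genes with 3 or 4 measured probes, 23.5% had a range at least as large, and the median range was 0.31. At this spread the mean of 0.020 for *Ppp2r5c* hides probes that differed in direction. The direction of the second probe of variant 1 changed to -0.093 under scaling to spike-in probes, while the other 3 kept theirs under the 7 alternatives run.

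*Ppp2r5e*, which encodes B56ε, had the widest range among the members. Its probe at chr12:76560687-76560746 had 1704 with siRNA-NC and 1736 with siRNA-Ppp2r5d, a log2 difference of 0.22 ± 0.20. The probe at chr12:76616251-76616310, annotated to a cDNA clone, was the probe with the largest rise among the members, with 165 and 204, or 0.50 ± 0.21. The probe at chr12:76551276-76551335, annotated to a predicted variant, went the other way with 88.4 and 64.1, or -0.27 ± 0.22. The range was 0.77, which 7.18% of genes with 3 or 4 measured probes reached. Each of the 3 probes kept its direction under the 7 alternatives run, so they disagreed under each of these settings. Whether they read separate transcripts was not analysed here.

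The scaffold subunits differed from each other. *Ppp2r1a* encodes the A subunit that most PP2A trimers contain, and both of its probes were higher with siRNA-Ppp2r5d. The bright probe, at chr17:21102805-21102864, had 9008 with siRNA-NC and 10985 with siRNA-Ppp2r5d, a log2 difference of 0.48 ± 0.20. The other, at chr17:21093994-21094053, had 357 and 382, or 0.29 ± 0.20. The gene value was 0.38, or 1.31-fold, above that of 92.0% of all genes. The bright probe was the single probe of another subunit that lay outside the 5th to 95th percentile of the probes of similar level, -0.23 to 0.41 over 1759 probes, a band that leaves out 10% of probes by construction. The gene value of *Ppp2r1a* stayed above 0 under all alternatives run, from 0.21 with spike-in scaling to 0.48 for the brightest probe alone.

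*Ppp2r1b*, the less abundant A subunit in most tissues, was dim. The probe at chr9:50675843-50675902 had 37.3 with siRNA-NC and 28.5 with siRNA-Ppp2r5d, a log2 difference of -0.20 ± 0.27. The probe at chr9:50689663-50689722 had 116 and 90.2, or -0.17 ± 0.21, so both were lower by less than the scanner error. The other 2 probes of the gene were not well above background on either array. The gene value was -0.19 and stayed below 0 under all alternatives run, although the dimmer probe rose to 0.023 after normexp background correction. The log2 differences of *Ppp2r1a* and *Ppp2r1b* lay 0.57 apart, a distance that a common scaling factor leaves as it is. Corrections that depend on intensity brought them closer. They were 0.35 and -0.14 with quantile normalization, and 0.38 and -0.018 after normexp correction.

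The catalytic subunits differed by less than the scanner error. *Ppp2ca*, which encodes the main catalytic subunit Cα, had 9557 with siRNA-NC and 8674 with siRNA-Ppp2r5d at chr11:51935900-51935959, a log2 difference of 0.053 ± 0.20. *Ppp2cb*, which encodes the closely related Cβ, had 10063 and 9406 at chr8:34730207-34730266, or 0.095 ± 0.20. Both differences were near the median of probes of similar level, 0.093 and 0.094. Their sign depends on the scaling: *Ppp2ca* ran from -0.13 with spike-in scaling to 0.080 with the median of measured probes, and *Ppp2cb* from -0.084 to 0.12.

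Since the catalytic subunit is common to all PP2A trimers, the other subunits were also set against the mean of the catalytic pair, 0.074, which removes any common scaling factor. On this scale *Ppp2r5d* was lower by a log2 value of -2.68 and *Ppp2r1a* higher by 0.31, or 1.24-fold. *Ppp2r1b* had -0.26, *Ppp2r5b* -0.10, *Ppp2r5c* -0.054, *Ppp2r5a* -0.0062 and *Ppp2r5e* 0.074. The changes were thus unequal, with *Ppp2r5d* far below the rest. A trend with intensity stays in these values. Probes of similar level had medians of 0.093 and 0.094 for the catalytic pair, and -0.031 and -0.040 for the dim probes of *Ppp2r1b*. Its share in the small differences was not tested. A ratio of this kind shows unequal change and not which of its terms changed.

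**Figure D2:**
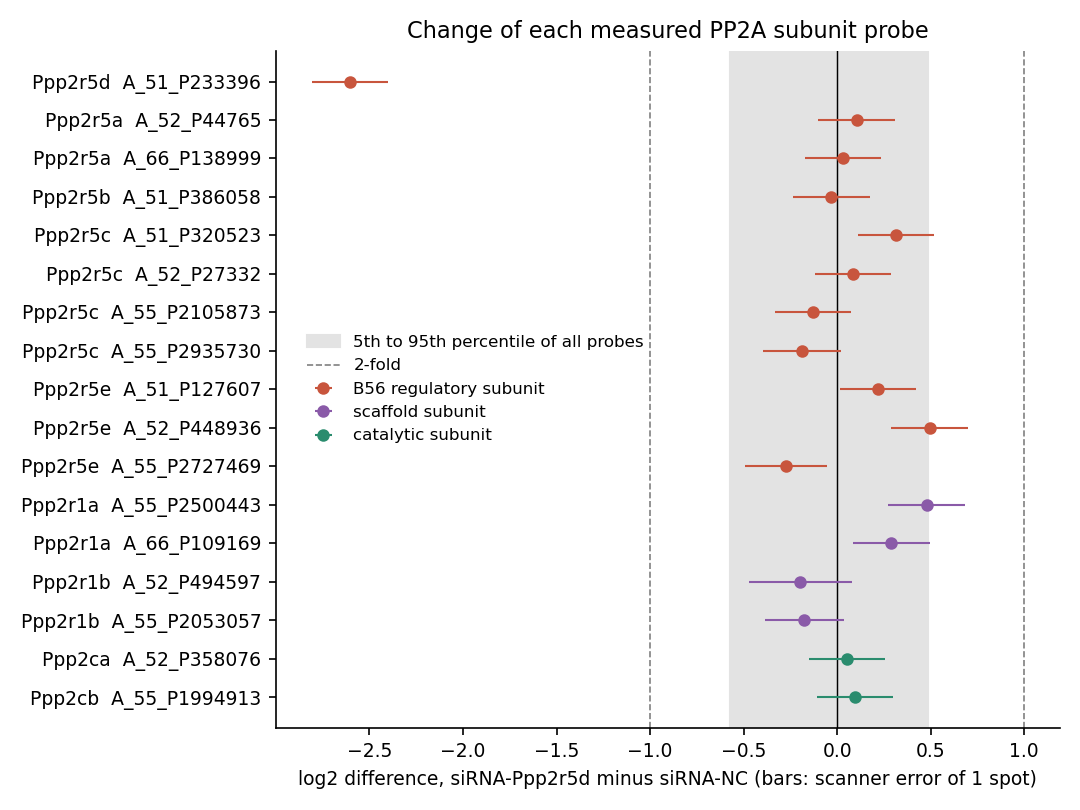
Log2 difference between siRNA-Ppp2r5d and siRNA-NC for the 17 subunit probes well above background on both arrays, coloured by subunit class, with bars of 1 scanner error. The grey band spans the 5th to 95th percentile of all probes, -0.57 to 0.49, and dashed lines mark 2-fold. The *Ppp2r5d* probe at -2.61 is the single point beyond 2-fold, and 15 of the other 16 lie inside the band, with the *Ppp2r5e* probe at 0.50 at its edge.

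Taken as a set, the members held 1 probe past 2-fold, that of *Ppp2r5d*. Of the 17 subunit probes measured on both arrays, 1 was at least 2-fold lower, beside 1.01% of the 31702 probes measured, and 0 were at least 2-fold higher, beside 0.823%. Over all probes these shares are 320 probes lower and 261 higher, a split that became 625 and 154 with spike-in scaling and 64 and 82 after normexp background correction. At 1.5-fold, no further probe of a subunit was higher, beside 3.31% of all probes, or lower, beside 4.83%. Past 1.5-fold in either direction lay 8.14% of all probes, a share that comes to little more than 1 probe among 16, so the absence of such a probe is no result about the subunits. The median size of the log2 difference, regardless of its sign, was 0.18 for the 16 probes of the other subunits and 0.18 over all probes. The differences of 6 of the 16 probes were larger than their own scanner error, beside 40.7% of all probes, and those of 2 were larger than 2 scanner errors, beside 13.4%. The other subunits were in this way spread like the rest of the array. Whether a B56, scaffold or catalytic messenger rose in response to the fall of *Ppp2r5d* was not tested.

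The direction of the small differences depends on how the arrays are set against each other. Of the 8 other subunit genes, 6 were above 0 with the 75th percentile, 4 with quantile normalization, 5 with cyclic loess and 1, *Ppp2r1a*, with scaling to spike-in probes. Over all genes 54.1% were above 0 with the 75th percentile. Spots repeated on the array gave a median SD of 0.036 for the log2 difference of a spot, over 293 probes, of which 276 were brighter than 1000. For the 6 such probes under an intensity of 100 it was 0.21, which bears on the dim probes of *Ppp2r1b* and *Ppp2r5e*.

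**Figure D3:**
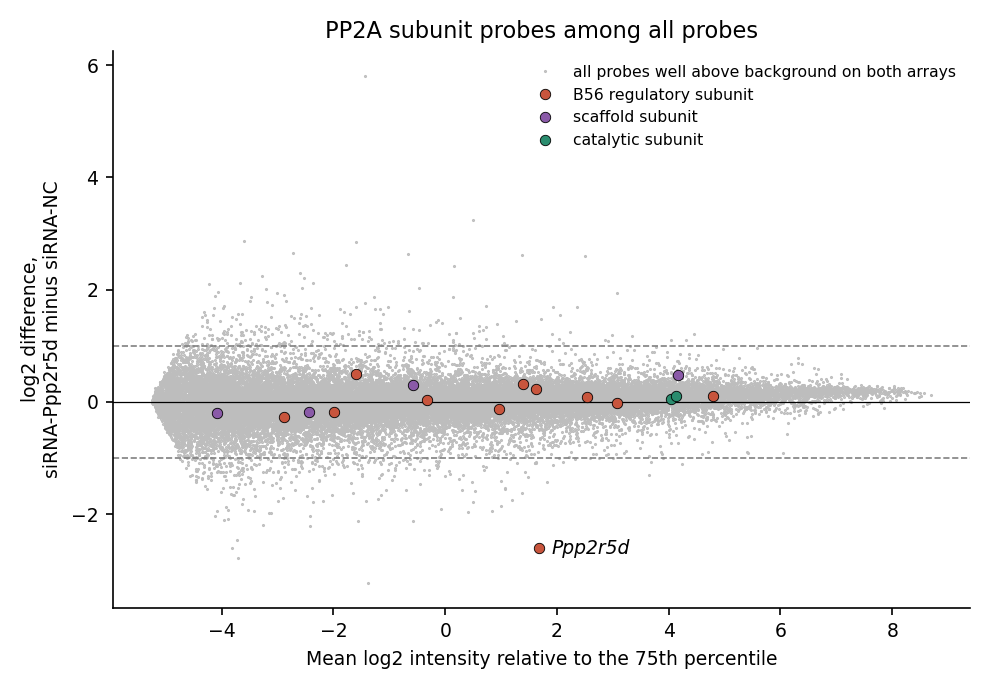
Log2 difference between the arrays (vertical axis) against mean log2 intensity relative to the 75th percentile (horizontal axis) for 31702 probes (grey) and the 17 measured subunit probes (coloured by class). Dashed lines mark 2-fold. The *Ppp2r5d* probe stands apart from probes of its level, while the catalytic and the other B56 probes lie within the cloud and the bright *Ppp2r1a* probe lies at its upper side.

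**Figure D4:**
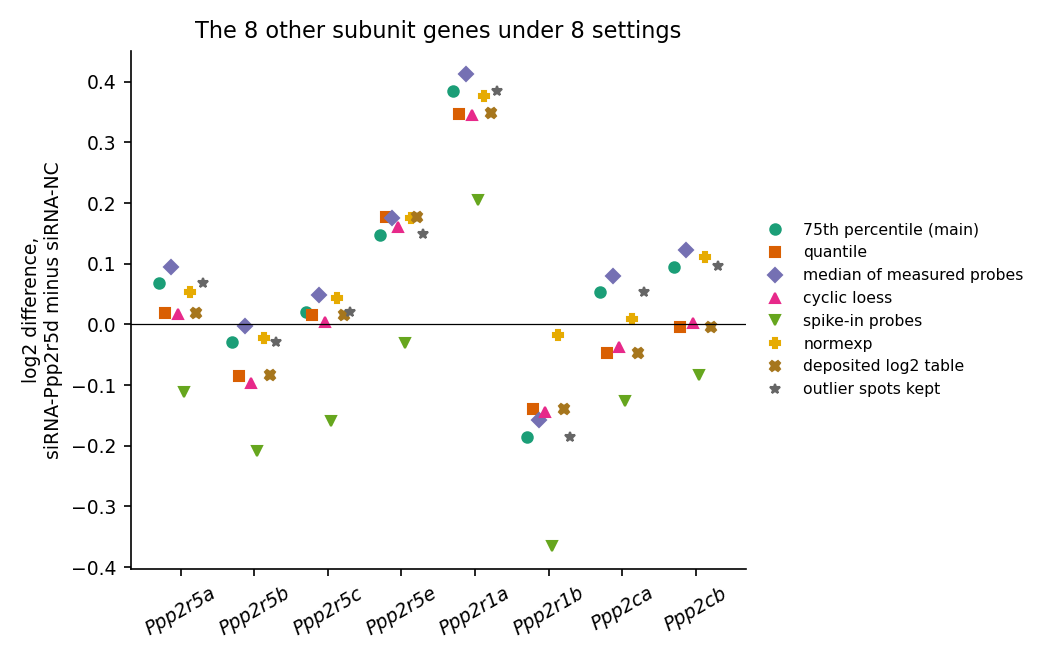
Log2 difference of the 8 other subunit genes under 8 settings, each setting with its own symbol. *Ppp2r1a* is above 0 and *Ppp2r1b* and *Ppp2r5b* are below 0 under every setting drawn, and spike-in scaling gives the lowest value for each gene.

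Genes around the PP2A trimer were examined as lists written from general knowledge, with earlier results of these data known. Of the alternative B subunits, which compete with B56 for the A and C subunits, 8 of 10 were measured on both arrays, 4 higher and 4 lower than 0, with a median log2 difference of -0.0070. None of the 8 reached 1.5-fold, beside 3.36% of all genes higher and 4.65% lower. The largest rise was in the B55α gene *Ppp2r2a* with 0.17 and the largest fall in the PR72 family gene *Ppp2r3d* with -0.30. The B55 genes *Ppp2r2b* and *Ppp2r2c* were not well above background on either array. At these shares fewer than 1 gene among 8 would lie past 1.5-fold, so their absence is no result about these genes.

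The 5 genes of assembly and methylation, whose proteins load the catalytic subunit or modify its tail, had a median of 0.027, from -0.013 for the activator *Ppp2r4* to 0.36 for *Tiprl*, which binds free catalytic subunits. The 9 inhibitor genes had a median of 0.065 and ran from -0.39 for *Cip2a*, named C330027C09Rik on the array, to 0.27 for *Set*, both of which encode inhibitors of PP2A. The catalytic subunits of the other PPP phosphatases had a median of 0.072 over 9 genes and ran from -0.25 for the calcineurin gene *Ppp3cc* to 0.31 for *Ppp3ca*. No gene of these 3 lists was past 1.5-fold, beside 3.36% of all genes higher and 4.65% lower, and at these shares an absence in lists of this size is no result about them. Under spike-in scaling the medians of these lists fell below 0, to -0.15, -0.11 and -0.11, beside -0.15 for all genes, and that of the assembly genes was also below 0, at -0.0081, with cyclic loess. The median of the alternative B subunits was above 0 with 5 of the alternatives and -0.19 with spike-in scaling.

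The last list held proteins known to dock on B56 or to be its targets. It too was written with earlier results of these data known, so its counts beside the shares of all genes cannot show an excess. Of its 17 genes 14 were measured on both arrays, 6 higher and 8 lower than 0, with a median of -0.063, which stayed below 0 under the 7 alternatives run. None was past 2-fold, beside 0.885% of all genes higher and 1.07% lower, although 2 were with spike-in scaling and 1 with dim probes kept. At the lower threshold, 5 were at least 1.5-fold lower, beside 4.65% of all genes. These were *Sgol2a* with -0.98, from 191 to 84.9, *Sgol1* with -0.89, *Cdc25c* with -0.81, *Bub1b* with -0.70 and *Cdca2* with -0.70, and *Kif4*, a motor of mitotic chromosomes, lay just short of 1.5-fold with -0.58. Apart from *Sgol2a*, the largest fall, they were named after their values were seen. *Sgol1* and *Sgol2a* encode shugoshins, which bring PP2A to centromeres, *Bub1b* encodes the checkpoint protein BubR1, which docks B56 at kinetochores, *Cdca2* encodes Repo-Man, and *Cdc25c* encodes a phosphatase of mitotic entry. The largest rise of the list was 0.36 in *Ccng1*, which encodes cyclin G1, a binder of B56. Some partners known from heart muscle, also named after their values were seen, had smaller differences. Ankyrin-B (*Ank2*) had 0.15 over 7 probes, which ran from -0.20 to 0.36. The phosphodiesterase gene *Pde4d* had 0.27 over 7 probes, from 0.014 to 0.43. The anchoring protein gene *Akap6* had -0.065 over 3 probes, from -0.17 to 0.11. *Fbxo43*, *Hand1* and *Ppp1r1b* of this list were not well above background on either array and are named for that reason.

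**Figure D5:**
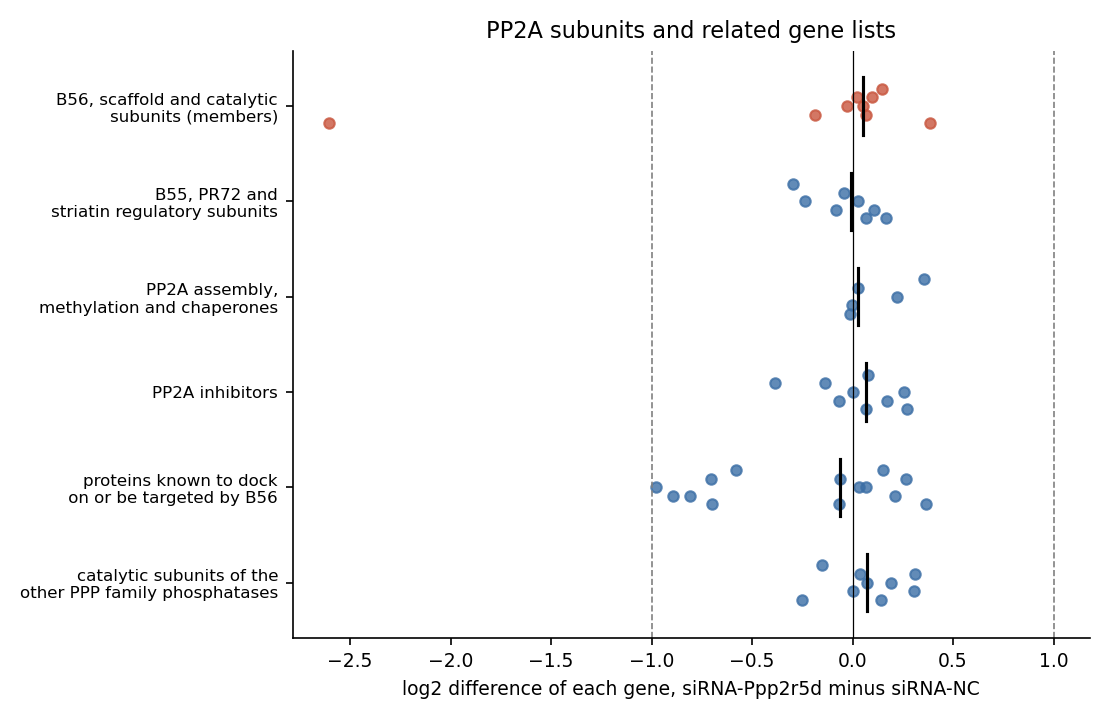
Log2 difference of each gene, measured on both arrays, for the 9 members (red) and 5 lists of related genes (blue), with the median of each group as a black bar and dashed lines at 2-fold. *Ppp2r5d* at -2.61 is the single gene past 2-fold, and the list of B56 partners has 6 genes between -0.98 and -0.58, of which 5 are at least 1.5-fold lower.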

How the data were processed

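RNA of 2 cultures of MCMs, 1 per condition, was measured on Agilent one-colour arrays. The files that the authors deposited hold spot intensity values from Feature Extraction 10.7.1.1, with the background already subtracted and no scaling between the arrays, and the scanner's error of each. The deposited table of log2 values equalled a quantile normalization of these intensities, with a median absolute difference of 2.13e-06.

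Control spots were left out, as were 126 outlier spots in the control and 95 after depletion, none of them a subunit probe. Spots of a probe were averaged on the log2 scale and set relative to the 75th percentile of the array's non-control probes. A probe counted as measured where it was well above background on both arrays, 31702 of 56605 probes. No spot was saturated. A gene was the mean of its measured probes. The scanner errors of both arrays were combined in quadrature. The precision is limited by 1 array per condition, and no test was run.

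The members, gene lists and markers were chosen with earlier results of these data known. The genes named are all members, the largest rise and fall of each list, the 4 genes closest to *Ppp2r5d*, of which 1 is not reported here, and 8 markers. Markers past 1.5-fold, *Myl2*, *Myl7*, *Pln*, *Actn2* and others where said were added after their values were seen. Gene synonyms came from the RefSeq table of GRCm38. The counting step was tested on simulated data. Alternatives were quantile normalization, the median of measured probes, cyclic loess, spike-in probes, normexp, the deposited log2 values, outlier spots kept, other filters, a 1.5-fold threshold and the brightest probe. Calculations used R 4.3.3, limma 3.58.1, Python 3.11.15, NumPy 2.4.6, pandas 2.3.3 and matplotlib 3.10.9.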

Additional observations from a re-analysis of the deposited data

How the results depend on the processing

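No paired analysis was possible because each condition had a single array, and no replicate could be left out. A log2 value counted as moved beyond a shift of 0.036, which is the median SD between spots of a probe, and a count beyond a change of 1.5 times. *Ppp2r5d* moved to -2.78 with scaling to the spike-in probes and to -2.49 after normexp correction, and stayed within 0.036 of -2.61 under the other alternatives. None of the 8 other subunit genes was past 1.5-fold or, under any scaling run, past 2-fold. Spike-in scaling left 1 of them above 0. The number of probes at least 2-fold higher, 261, became 154 with spike-in scaling, 82 after normexp, 1048 at 1.5-fold, 1598 with all dim probes kept and 563 with probes measured on at least 1 array. The number at least 2-fold lower, 320, became 625, 64, 1532, 1949 and 841 in the same order. Among the B56 partners, 2 genes were past 2-fold with spike-in scaling, 5 past 1.5-fold and 1 past 2-fold with dim probes included. Of 233 further values under an alternative, 98 moved. Among the log2 differences behind them only that of the *Ppp2r5d* probe was past 2-fold, and it kept its sign. Smaller ones changed sign, such as that of the *Ppp2ca* gene, from 0.053 to -0.13 with spike-in scaling. The cause of the moves was not tested, except that another threshold or filter changes a count by construction.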
